A study of Mus musculus with 18 samples.

Results

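Mice lacking Igf1 were compared with wild-type mice at postnatal day 15 (P15) in the vestibular organ, which holds the sensors of balance and head movement in the inner ear. The 6 P15 arrays, 3 per genotype, were chosen by age from the 18 arrays of a series that also holds E18.5 embryos and P90 adults of both genotypes. The P15 null group is Igf1-/- and the P15 wild-type group Igf1+/+, both on a hybrid Mf1 and 129/sv background, and the same 2 genotypes make up the E18.5 and P90 groups. All animals were perfused with paraformaldehyde before dissection. The titles, source names and genotype entries give the genotypes used here, whereas the free-text description of the P15 wild-type arrays, and of the P90 ones, also reads Igf1 -/-. The labels call the arrays biological replicates without saying whether one holds RNA of 1 animal or of several, so the p-values measure the spread between arrays.

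The product of Igf1, insulin-like growth factor 1, is a secreted protein that binds the receptor tyrosine kinase Igf1r, which signals through insulin receptor substrates to the PI3 kinase and MAPK pathways. Binding proteins hold the factor outside cells, and proteases such as pappalysins release it. After birth much of its production follows growth hormone, and it promotes growth of muscle, bone and many other tissues. In the inner ear it is known for roles in the survival and differentiation of neurons and sensory cells.

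Values are log units of unstated base after quantile normalization. With base e, the likely one, a difference of 1 unit means 2.72-fold, and with base 2 it means 2-fold. Each difference is the null mean less the wild-type mean, given with its standard error from a limma fit to all 18 arrays, and called genes have a Benjamini-Hochberg adjusted p under 0.05 over the 19938 genes tested. The deposited medians of the P15 arrays were 4.23 to 4.44. Correlations of P15 arrays over all genes were 0.985 to 0.990 within a genotype and 0.980 to 0.986 between genotypes. The first principal component of the P15 arrays (28% of the variance) put the nulls at -17.9 to -6.56 and the wild types at 8.49 to 18.8. On the second component (26.3%) the genotypes overlapped, with the nulls at -15.9 to 10.9 and the wild types at -11.7 to 17.7. No detection call came with the values. A rough guide to dim signal is 3.39, the highest level of a Y-linked gene in the 2 arrays lowest in them (2.18 in the lowest alone, a stricter guide, since the other may carry Y-linked signal), and 24.6% of genes had both P15 means below it.

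Sex markers varied within both genotypes. Xist, the RNA that silences an X chromosome in female cells, was at 7.61, 8.09 and 4.09 in the nulls and at 7.48, 5.34 and 7.48 in the wild types. The mean of 3 Y-linked genes was 5.69, 3.29 and 6.31 in the nulls and 5.56, 6.19 and 5.9 in the wild types. Null 1 and wild types 1 and 3 thus had both signals, null 2 had the lowest Y-linked signal, and null 3 the lowest Xist. With a sex score as a covariate 3 genes were again called.

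At P15, 3 genes rose in null and none was called as lower (0.015% and 0% of genes by limma's adjusted p). At an unadjusted p under 0.05, 737 genes were higher (3.7%) and 652 lower (3.27%), together 6.97%. The null arrays lay all above the wild-type arrays for 8.75% of genes and all below for 7.75%, together 16.5%. An exact permutation test of 1 gene in 3 against 3 arrays cannot go below p = 0.1. Of all genes 53.7% had a difference above 0 and 46.3% below, with a median of 0.01 and quartiles of -0.08 and 0.10, and 344 genes differed by over 0.5, of which 144 were higher and 200 lower in null. The count of calls was 0 without null 2, null 3 or wild type 2, 1 without wild type 1 or 3, and 2 without null 1. It was 0 when the 6 arrays were fitted alone, and 170 (87 higher, 83 lower) when arrays were weighted by their estimated quality, which gave null 3 a weight of 3.59 and the other P15 arrays weights of 0.698 to 1.4.

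Pde1c, a calcium- and calmodulin-dependent phosphodiesterase that breaks down cyclic AMP and cyclic GMP, had the smallest p. It was at 5.22, 5.48 and 5.50 in the nulls and at 4.67, 4.55 and 4.34 in the wild types. The groups did not overlap, and the gene rose by 0.88 ± 0.11 (SE; adjusted p = 0.0145, limma). Its difference was 0.02 ± 0.11 at E18.5 and -0.04 ± 0.11 at P90. The P15 difference exceeded that at E18.5 by 0.86 ± 0.15 (adjusted p = 0.0382, limma), while the excess over P90 of 0.92 ± 0.15 missed the threshold (adjusted p = 0.0816). The related Pde1a differed by 0.21 ± 0.14 and Pde1b by 0.22 ± 0.11 at P15, and neither passed. In the list of 18 phosphodiesterases linked to calcium and cyclic AMP, 11 were higher and 7 lower, with a median of 0.13 (0.06 without normalization and with array medians subtracted, and 0.09 without null 1), and Pde1c was the member called. The Pde1c call was lost without null 2 (adjusted p = 0.058), null 3 (0.155), wild type 2 (0.0979) or wild type 3 (0.0589), with differences of 0.79 to 0.90, and without normalization between arrays (0.104).

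Trim30d belongs to the Trim30 family, mouse genes of which Trim30a is known as induced in innate immune responses. It was at 3.15, 2.86 and 3.38 in the nulls and at 1.90, 1.27 and 1.71 in the wild types. All values were below the guide of 3.39 and the wild types also below 2.18, the groups did not overlap, and the gene rose by 1.5 ± 0.22 (adjusted p = 0.0354, limma). Trim30a was at 5.61, 5.16 and 5.44 in the nulls and at 5.51, 5.39 and 5.59 in the wild types, a difference of -0.10 ± 0.16 with overlapping groups, which turned to 0.03 without null 2. The members of this family are close copies of each other, so a probe's signal may come from more than 1 of them. In the interferon response list 23 of 37 genes were higher and 14 lower (median 0.06). That median was -0.00302 without wild type 1, 0.00224 without null 1, 0.00817 without null 3, 0.04 without wild type 2, 0.10 without wild type 3 and 0.11 without null 2. Besides Trim30d its member with the smallest p was Iigp1, an interferon-induced GTPase, at 5.41, 4.07 and 4.67 in the nulls and 3.64, 4.10 and 4.09 in the wild types.

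1700006A11Rik, named in the annotation as a RIKEN cDNA, was at 2.31, 2.18 and 2.45 in the nulls and at 1.30, 1.5 and 1.68 in the wild types. Both groups were dim, and the gene rose by 0.82 ± 0.11 (adjusted p = 0.0207, limma). Its difference was 0.36 ± 0.11 at E18.5 and -0.28 ± 0.11 at P90, and the P15 difference exceeded the P90 one by 1.11 ± 0.16 (adjusted p = 0.0382). Leaving out any 1 array ended the call of Trim30d (adjusted p 0.058 to 0.271), and leaving out any array but wild type 3 ended that of 1700006A11Rik (0.058 to 0.155). The 1700006A11Rik call also ended without normalization (adjusted p = 0.199), with array medians subtracted (0.0541) and with a trended prior (0.0937).

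**Figure D1:**
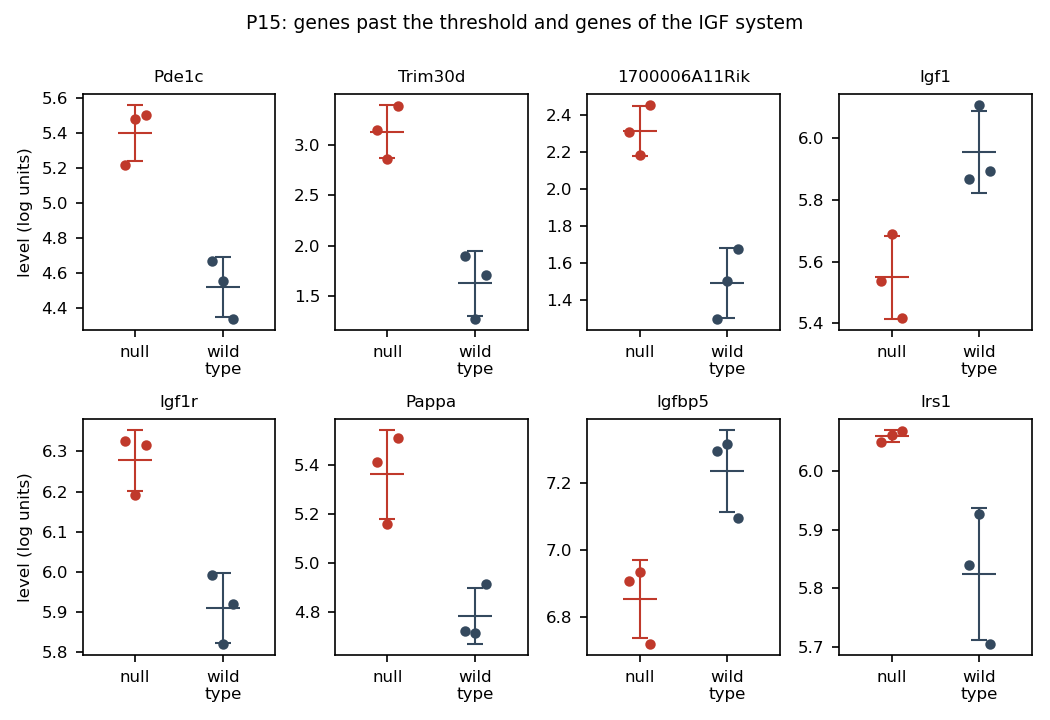
Level (log units, normalized) in each P15 array of the 3 genes past the threshold and of 5 genes of the IGF system, with null at the left and wild type at the right of each panel. Points are arrays in replicate order, and bars give the mean and SD (n = 3 each). The groups do not overlap in any panel, but of these genes those called are Pde1c, Trim30d and 1700006A11Rik. Over the full lists, 3 of 15 IGF ligands, receptors and adaptors were higher and 1 lower without overlap. Of 14 binding proteins and proteases 3 were higher and 2 lower without overlap. The shares of all genes were 8.75% and 7.75%. Each panel has its own scale.

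Among genes whose null arrays lay all above the wild-type arrays, several with the next smallest p fell short of the threshold. Tanc2, a scaffold protein of synapses, was at 6.20, 6.24 and 6.30 in the nulls and at 5.81, 5.87 and 5.64 in the wild types (0.48 ± 0.08, adjusted p = 0.105, limma). Asxl3, a chromatin regulator, differed by 0.44 ± 0.08 (adjusted p = 0.112). The axon guidance receptor Sema6a (0.45 ± 0.09), the latrophilin Adgrl2 (0.34 ± 0.07) and the epithelial adhesion protein Epcam (0.58 ± 0.11) each had an adjusted p of 0.163. Lack of overlap was the condition for choosing these 5 genes.

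Igf1 itself was at 5.54, 5.69 and 5.42 in the nulls and at 5.87, 6.11 and 5.89 in the wild types. The groups did not overlap, and the difference of -0.41 ± 0.12 missed the threshold (adjusted p = 0.476, limma). Signal remained in every null array. The position of the deletion relative to the probes was not stated, and the genotype therefore could not be checked by this level. Among 100 measured genes next to Igf1 on chromosome 10, 50 on each side, 3 were higher and 4 lower at an unadjusted p under 0.05, which is 7% against 6.97% of all genes, and none was called.

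Genes of the receptor side leaned higher in null. Igf1r was at 6.32, 6.19 and 6.32 in the nulls and at 5.99, 5.82 and 5.92 in the wild types, and the groups did not overlap. Its difference was 0.37 ± 0.08 (adjusted p = 0.235, limma), against 0.02 ± 0.08 at E18.5 and 0.33 ± 0.08 at P90. The insulin receptor substrates Irs1 and Irs2, which carry the receptor's signal, differed by 0.24 ± 0.08 and 0.27 ± 0.10, both without overlap. In the list of 15 ligands, receptors and adaptors 12 were higher and 3 lower, with a median of 0.07, and none was called. That median was 0.01 without normalization between arrays and 0.02 with array medians subtracted, and 0.12 without null 1 and 0.13 without wild type 2. Of the 15 genes 3 were higher and 1 lower without overlap, against 8.75% and 7.75% of all genes.

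Among binding proteins and their proteases the differences went both ways. Pappa, a protease that cleaves IGF binding proteins, was at 5.41, 5.16 and 5.51 in the nulls and at 4.72, 4.71 and 4.92 in the wild types (0.58 ± 0.13, adjusted p = 0.291, limma). Igfbp5, a binding protein abundant in bone and muscle, was at 6.91, 6.93 and 6.72 in the nulls and at 7.30, 7.32 and 7.10 in the wild types (-0.38 ± 0.10, adjusted p = 0.403). Neither gene overlapped between genotypes. Pappa2, a second protease of this family, differed by 0.41 ± 0.16. Igfals, which holds IGF1 in the circulating complex, differed by -0.34 ± 0.11, both means being below 3.5. Of the 14 genes of this list 8 were higher and 6 lower (median 0.07), and none was called. That median was 0.00298 when wild type 3 was left out and 0.04 when null 2 was, and it was 0.03 under both other scalings. Of the 14 genes 3 were higher and 2 lower without overlap, against 8.75% and 7.75% of all genes.

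Genes of the MAPK feedback list had small differences above 0. Of 12 genes 12 were above 0 as reported, with a median of 0.12, from 0.02 for Etv1 to 0.27 for Spred3, and under the alternatives up to 3 were below 0. None was called. Spry4, which dampens receptor tyrosine kinase signals, was at 4.79, 4.74 and 4.79 in the nulls and at 4.54, 4.56 and 4.54 in the wild types. The median was 0.20 without wild type 1. Genes that FoxO factors switch on were split, 8 higher and 10 lower of 18 (median -0.03), and of 9 genes of growth hormone signalling 3 were higher and 6 lower (median -0.03). Neither direction held: the FoxO median was 0.03 without null 2 or wild type 1 and 0.00843 without null 3, and the other 0.01 without null 3 and 0.02 without wild type 2. Txnip, a FoxO target and inhibitor of thioredoxin, had the largest difference of the FoxO list, 0.25 ± 0.10.

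**Figure D2:**
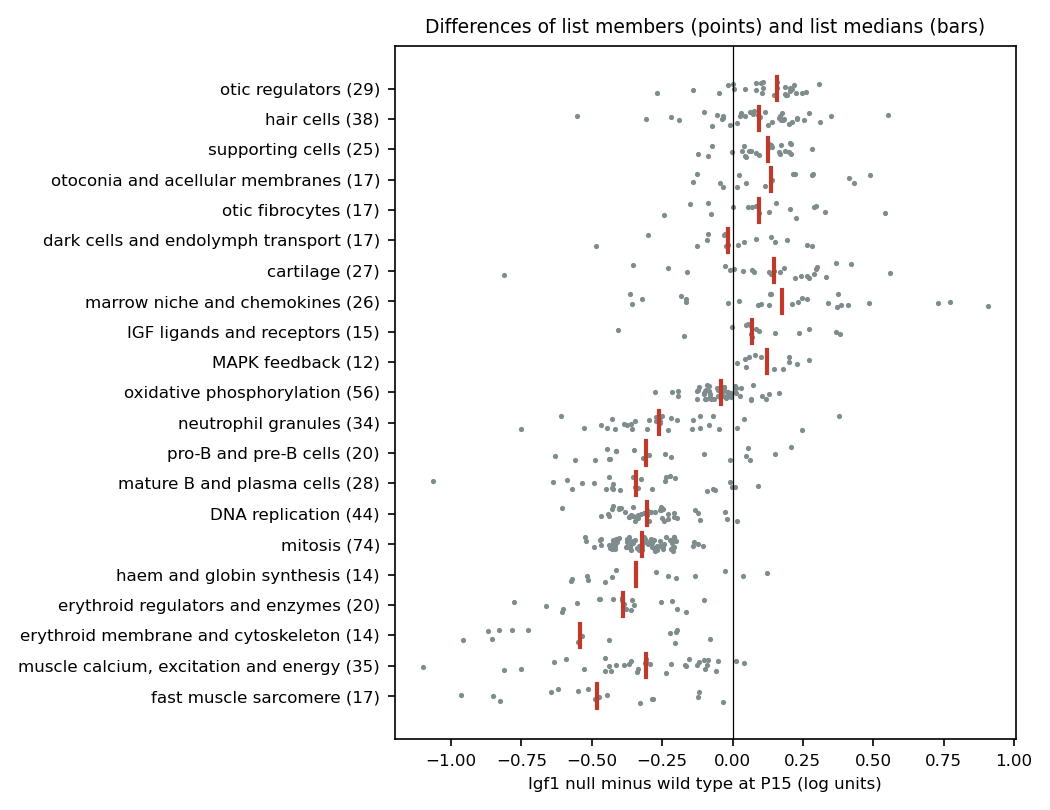
Null minus wild type at P15 (log units) for each member of 21 gene lists, with the number of measured genes in brackets. Points are genes and red bars list medians, and points are spread vertically within a list for visibility. The muscle, blood-forming and cell division lists lie left of 0, with medians of -0.26 for neutrophil granules to -0.54 for erythroid membrane genes, and the inner ear lists lie slightly right of 0 except dark cells and endolymph transport (-0.02).

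Skeletal muscle genes had lower values in null at P15. The contractile unit of muscle, the sarcomere, is built of myosin and actin filaments with troponins and alpha-actinins, and fast fibres use their own forms of many of these proteins. Of 17 fast sarcomere genes 17 had a difference below 0, with a median of -0.48, against 46.3% and 0.01 over all genes. At an unadjusted p under 0.05 there were 12 of 17, against 3.27% of all genes, and 11 did not overlap between genotypes, against 7.75%. None was called. The mean level of the list was 5.84, 5.73 and 5.43 in the nulls and 6.21, 6.07 and 6.14 in the wild types. A lower level in such bulk RNA can come from fewer cells of a type or from less RNA per cell, and these cannot be told apart.

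Actn3, the alpha-actinin of fast fibre Z-discs, was at 6.08, 6.03 and 5.44 in the nulls and at 6.73, 6.57 and 6.80 in the wild types (-0.85 ± 0.17, adjusted p = 0.23, limma). The fast myosin light chain Mylpf was at 5.28, 5.45 and 5.15 in the nulls and at 5.91, 5.86 and 5.95 in the wild types (-0.62 ± 0.13). Every null array was below every wild-type array for both. Myh4, the myosin heavy chain of the fastest fibres, differed by -0.83 ± 0.24, and Tnnc2, the fast troponin C, by -0.51 ± 0.15.

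Genes of muscle energy use and calcium handling followed the same direction. Of 35 genes 33 were lower (median -0.31), 11 at an unadjusted p under 0.05 and 14 without overlap, against 3.27% and 7.75% of all genes. Ampd1, the AMP deaminase of muscle, was at 3.93, 4.30 and 3.94 in the nulls and at 5.10, 5.10 and 5.28 in the wild types (-1.10 ± 0.21, adjusted p = 0.163, limma), the largest difference of this list. Casq1, the calcium store protein of the sarcoplasmic reticulum, differed by -0.81 ± 0.19, the creatine kinase Ckm by -0.75 ± 0.18 and the calcium pump Atp2a1 by -0.64 ± 0.17. Slow fibre genes were lower in 13 of 14 (median -0.28, or -0.18 without null 3), and genes shared by fibre types or expressed in embryonic muscle in 25 of 29 (median -0.32). Among 24 genes of myogenic factors and the neuromuscular junction 17 were higher and 7 lower (median 0.04, or -0.00167 without wild type 3). The muscle transcription factor Myf5 differed by -0.52 ± 0.17 with both means below 3.39, and Mef2a by 0.19 ± 0.07. Ostn, a peptide secreted by muscle and bone cells, was at 2.89, 2.63 and 2.46 in the nulls and at 3.74, 3.17 and 3.92 in the wild types.

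Genes of red blood cell formation were lower in null. Developing red cells build a membrane skeleton, take up iron, make haem and fill with haemoglobin under the transcription factors Gata1, Tal1 and Klf1. Of 14 membrane and cytoskeleton genes 14 were lower (median -0.54), 9 at an unadjusted p under 0.05 and 11 without overlap, against 3.27% and 7.75% of all genes. Of 20 regulators and enzymes 20 were lower (median -0.39), 12 at an unadjusted p under 0.05. Of 14 genes of haem and globin synthesis 12 were lower (median -0.34), 7 at an unadjusted p under 0.05. None of the 3 lists had a called gene. The mean of the membrane list was 5.48, 5.80 and 5.69 in the nulls and 5.98, 6.33 and 6.26 in the wild types, so the groups did not overlap, though null 1 and wild type 1 were the lowest of their genotypes.

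Rhd and Rhag encode proteins of the Rh complex of the red cell membrane. Rhd was at 4.48, 5.54 and 5.12 in the nulls and at 5.64, 6.31 and 6.07 in the wild types (-0.96 ± 0.28, adjusted p = 0.485, limma), and Rhag at 5.03, 5.78 and 5.49 in the nulls and at 5.99, 6.53 and 6.40 in the wild types (-0.87 ± 0.27). The anion exchanger Slc4a1 differed by -0.85 ± 0.36 and the erythropoietin receptor Epor by -0.55 ± 0.17, and the groups did not overlap for these 4 genes. Gata1 differed by -0.61 and Tal1 by -0.39 ± 0.14. In haem synthesis, Slc25a38, the mitochondrial carrier that brings in glycine, was at 5.66, 5.98 and 5.74 in the nulls and at 6.11, 6.29 and 6.22 in the wild types (-0.41 ± 0.09, adjusted p = 0.25). The transferrin receptor Tfrc, through which cells take up iron, differed by -0.52 ± 0.12, and the haem enzymes Cpox and Alad by -0.52 ± 0.14 and -0.43 ± 0.13.

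The precursors of 2 microRNAs of red cells were also lower. Mir144 and Mir451a lie 99 bases apart on chromosome 11 and are known to be transcribed together in erythroid cells. Mir144 was at 1.30, 2.44 and 2.26 in the nulls and at 2.75, 4.13 and 3.33 in the wild types (-1.40 ± 0.41, adjusted p = 0.485, limma). Mir451a was at 2.98, 3.02 and 2.94 in the nulls and at 3.09, 4.21 and 3.93 in the wild types (-0.76 ± 0.23). Both did not overlap between genotypes, with signals near or below the dim guide, and the array reads the precursor rather than the mature form. Mir451a and the list of 21 microRNA precursors it belongs to (14 higher, 7 lower, median 0.10, or 0.06 without null 2 or wild type 1) were chosen after their values were seen. The mature sequences are shown because their seeds (bases 2 to 8, in capitals) set which messages they pair with, and the 3 seeds differ. They are from RefSeq (GRCm38.p6), plus strand of chr11:78073010-78073032, chr11:78073047-78073066 and chr11:78073186-78073207.
mmu-miR-144-5p: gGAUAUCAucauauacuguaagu
mmu-miR-144-3p: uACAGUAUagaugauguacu
mmu-miR-451a: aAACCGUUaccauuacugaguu

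Promoters of erythroid genes are known to carry GATA motifs and CACCC boxes, which bind Gata1 and Klf1. In windows from 250 bases before to 50 after the start, AGATAA on either strand was found in 3 of 9 promoters of the membrane list and 5 of 13 of the regulator list with an entry, 33.3% and 38.5%, against 11.4% of 27025 promoters. CCACCC was found in 66.7% and 38.5%, against 30.9%. The promoters of Rhd and Rhag, the 2 genes of the membrane list with a table entry and the smallest p, are shown from RefSeq (GRCm38.p6) with these motifs in capitals, at chr4:134864286-134864585 and chr17:40810899-40811198, both on the plus strand. The Rhd window holds 1 AGATAA and the Rhag window 1 CCACCC, read on the other strand. A match is a run of letters and was not tested as a binding site.
Rhd: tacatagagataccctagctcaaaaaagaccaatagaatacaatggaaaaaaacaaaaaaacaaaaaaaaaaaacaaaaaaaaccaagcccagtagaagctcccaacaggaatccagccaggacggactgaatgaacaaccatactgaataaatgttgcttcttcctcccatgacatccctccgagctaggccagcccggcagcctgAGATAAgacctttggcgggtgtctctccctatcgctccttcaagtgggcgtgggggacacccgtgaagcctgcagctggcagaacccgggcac
Rhag: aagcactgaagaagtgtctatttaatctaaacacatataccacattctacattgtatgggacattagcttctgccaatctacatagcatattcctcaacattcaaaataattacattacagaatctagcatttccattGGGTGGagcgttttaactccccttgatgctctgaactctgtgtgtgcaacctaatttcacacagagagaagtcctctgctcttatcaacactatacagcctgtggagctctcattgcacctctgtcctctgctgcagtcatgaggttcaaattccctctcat

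Most B lymphocyte genes were lower at both stages of the lineage. Of 28 genes of mature B and plasma cells 26 were lower (median -0.34), 13 at an unadjusted p under 0.05 and 15 without overlap, and of 20 genes of pro-B and pre-B cells 15 were lower (median -0.31), 8 at an unadjusted p under 0.05, against 3.27% at that p and 7.75% without overlap over all genes. None was called. The mean of the mature list was 4.52, 4.36 and 4.36 in the nulls and 4.8, 4.65 and 4.77 in the wild types, without overlap. Spib, a transcription factor needed in B lymphocytes, was at 5.19, 5.15 and 5.12 in the nulls and at 5.96, 5.66 and 5.76 in the wild types (-0.64 ± 0.12, adjusted p = 0.163, limma). The immunoglobulin heavy chain gene Ighg3 was at 2.91, 2.46 and 1.94 in the nulls and at 3.39, 3.48 and 3.62 in the wild types (-1.06 ± 0.20). Every null array was below every wild-type array for both genes. Without null 1, Ighg3 passed (-1.30, adjusted p = 0.0362).

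The surrogate light chain partner Vpreb3 differed by -0.63 ± 0.15, the antigen receptor chain Cd79b by -0.44 ± 0.12, the recombinase subunit Rag2 by -0.45 ± 0.14 and the B cell coactivator Pou2af1 by -0.45 ± 0.13, all 4 without overlap. In the pro-B and pre-B list 5 genes were higher, 1 of them without overlap, and the largest rise was 0.21 for Vpreb2. T and NK cell genes were split, 9 higher and 10 lower of 19 (median -0.02, and above 0 in 7 of 16 settings, up to 0.06). Neutrophil granule genes were lower in 30 of 34 (median -0.26), with 1 at an unadjusted p under 0.05 and 2 without overlap, shares no larger than the 3.27% and 7.75% of all genes. Their mean was 5.93, 5.49 and 5.47 in the nulls and 5.88, 5.78 and 5.97 in the wild types, so null 1 lay within the wild-type range. The list median was -0.42 without null 1 and -0.18 without null 3. Cd177, a neutrophil surface protein, was at 4.99, 4.8 and 4.90 in the nulls and at 5.71, 5.56 and 5.68 in the wild types (-0.75 ± 0.21, adjusted p = 0.457). Of 26 monocyte and macrophage genes 16 were lower (median -0.07, or -0.00646 without wild type 2 and -0.13 without wild type 3). Timd4, a receptor for dying cells on resident macrophages, differed by -0.48 ± 0.10.

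Genes of mitosis and DNA replication were lower in null, with 1 exception among the replication genes, Gins4 (0.02), while those of the G1 phase were split. Of 74 genes of mitosis 74 had a difference below 0 (median -0.32), 18 at an unadjusted p under 0.05 and 41 without overlap, and of 44 genes of DNA replication 43 (median -0.30), with 26 and 29, against 3.27% and 7.75% of all genes. None was called. The mean of the mitosis list was 5.10, 5.36 and 5.19 in the nulls and 5.41, 5.73 and 5.48 in the wild types, and that of the replication list 5.10, 5.36 and 5.25 in the nulls and 5.43, 5.68 and 5.47 in the wild types. Null 1 and wild type 1 were lowest and null 2 and wild type 2 highest of their genotypes in both, as in the erythroid membrane list. The part of blood-forming cells in these values was not tested.

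Cenpn, a centromere protein that binds the centromeric histone, was at 5.15, 5.32 and 5.19 in the nulls and at 5.58, 5.77 and 5.55 in the wild types (-0.41 ± 0.09, adjusted p = 0.289, limma). The cyclin Ccnf differed by -0.42 ± 0.12 and the mitotic kinase Aurka by -0.47 ± 0.16. Of the replication genes, Mcm2, a part of the helicase that opens DNA, differed by -0.44 ± 0.14, the loading factor Cdc6 by -0.47 ± 0.15 and the ribonucleotide reductase subunit Rrm2 by -0.61 ± 0.21. None of these overlapped between genotypes. The G1 list had 9 genes higher and 11 lower of 20 (median -0.03, and 0.03 without wild type 2 and 0.01 with array weights). Ccnd1, the cyclin that growth factors induce, was at 5.70, 5.70 and 5.69 in the nulls and at 5.55, 5.57 and 5.34 in the wild types (0.21 ± 0.09). Btg2, an inhibitor of proliferation, was at 5.79, 5.80 and 5.69 in the nulls and at 6.08, 6.05 and 6.05 in the wild types.

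Promoters of mitotic genes are known for pairs of CCAAT boxes with a cell cycle element named CHR. In the same windows TTTGAA on either strand was found in 44 of 61 promoters of the mitosis list, 72.1%, against 18.1% of 27025 promoters, and in 5 of 37 of the replication list, 13.5%. CCAAT on either strand was found in 68.9% and 59.5%, against 37.9%. The promoters of Cenpn and Ccnf, the mitosis genes with the smallest p, are shown with both motifs in capitals, from RefSeq (GRCm38.p6), chr8:116921490-116921789 on the plus strand and chr17:24251360-24251659 on the minus strand. The Cenpn window holds 1 of each and the Ccnf window 2 of each, and no matches overlap.
Cenpn: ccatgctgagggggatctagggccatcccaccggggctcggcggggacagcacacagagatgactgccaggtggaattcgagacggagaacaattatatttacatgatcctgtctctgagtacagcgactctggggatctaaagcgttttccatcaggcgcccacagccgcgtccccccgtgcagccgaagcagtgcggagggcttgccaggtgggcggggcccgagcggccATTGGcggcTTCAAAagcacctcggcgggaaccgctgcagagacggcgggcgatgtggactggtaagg
Ccnf: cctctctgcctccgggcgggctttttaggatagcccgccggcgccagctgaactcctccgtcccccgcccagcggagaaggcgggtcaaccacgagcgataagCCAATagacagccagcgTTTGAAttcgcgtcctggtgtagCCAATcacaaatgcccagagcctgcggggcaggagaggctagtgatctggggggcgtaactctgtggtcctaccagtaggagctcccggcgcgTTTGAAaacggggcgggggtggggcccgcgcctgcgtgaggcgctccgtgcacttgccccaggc

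**Figure D3:**
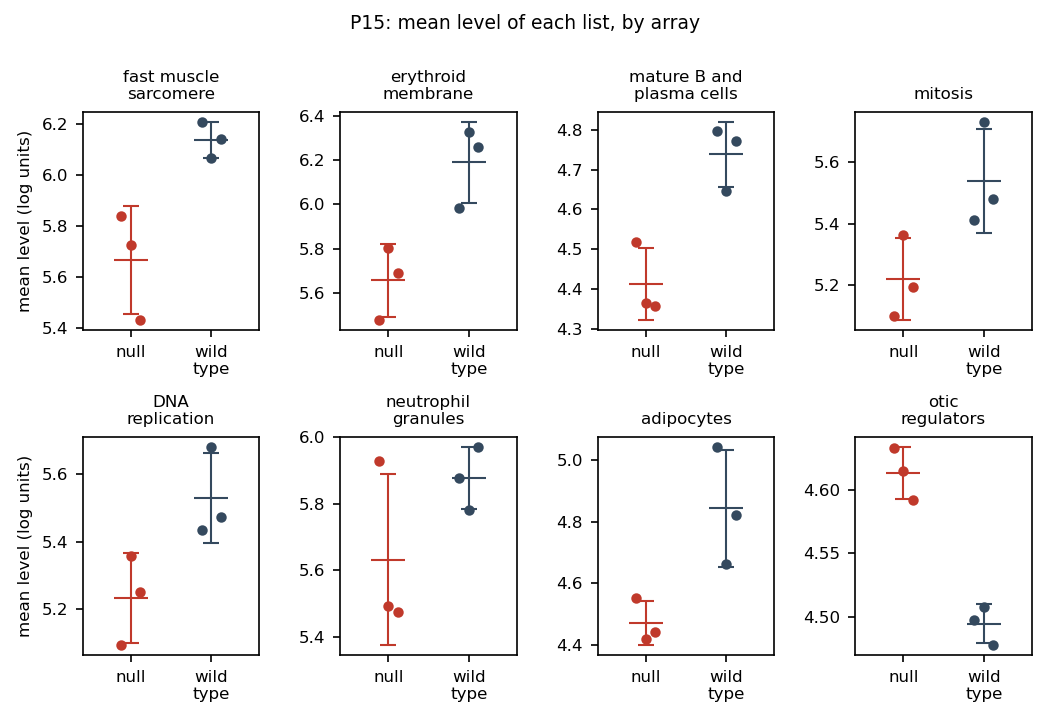
Mean level (log units) over the members of 8 gene lists in each P15 array, with null at the left and wild type at the right. Points are arrays in replicate order, bars the mean and SD (n = 3 each), and each panel has its own scale. The groups do not overlap except for neutrophil granules, where null 1 (5.93) lies among the wild types (5.78 to 5.97), and otic regulators are the list of these 8 with higher values in null.

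Of the 7 inner ear lists 6 had medians above 0 in null, from 0.09 to 0.16, and 1 was split. The split list was that of dark cells and endolymph transport, the epithelium that secretes potassium into the inner ear fluid, with 8 higher and 9 lower of 17 (median -0.02, and 0.01 with array weights, 0.04 without null 2, 0.02 without null 3, 0.00402 without wild type 1 and 0.03 without wild type 3). Coch, the cochlin secreted by otic fibrocytes, was at 7.98, 7.82 and 7.88 in the nulls and at 7.56, 7.59 and 7.63 in the wild types (0.30 ± 0.09, adjusted p = 0.518, limma). The other fibrocyte proteins Otor and Otos differed by 0.54 ± 0.17 and 0.33 ± 0.11, and these 3 genes did not overlap between genotypes. Of 17 fibrocyte genes 13 were higher (median 0.09). Of 29 regulators of otic development 25 were higher (median 0.16), 4 at an unadjusted p under 0.05 and 8 without overlap, against 3.7% and 8.75% of all genes, and the mean of this list was 4.63, 4.62 and 4.59 in the nulls and 4.50, 4.51 and 4.48 in the wild types. Nr2f2, a nuclear receptor, differed by 0.16 ± 0.06.

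Sensory and extracellular components followed. Of 38 hair cell genes 27 were higher (median 0.09, or 0.17 without normalization and with array medians subtracted), 5 at an unadjusted p under 0.05, against 3.7% of all genes. The other 11 were lower. The largest rise of this list was 0.55 for Atoh1, whose arrays overlapped between genotypes, and the largest fall -0.55 for Xirp2. Loxhd1, a protein of the hair bundle, was at 4.08, 4.16 and 3.97 in the nulls and at 3.83, 3.71 and 3.73 in the wild types, the bundle scaffold Ush1c differed by 0.35 ± 0.13, and the tip link protein Pcdh15 by 0.27 ± 0.12. Supporting cell genes were higher in 21 of 25 (median 0.13), which was 0.06 both without normalization and with array medians subtracted. Otoconia are the mineral grains that load the gravity-sensing organs. Genes of otoconia and acellular membranes were higher in 13 of 17 (median 0.14). Otog, the otogelin of the membrane above the hair cells, was at 4.69, 4.59 and 4.81 in the nulls and at 4.13, 4.41 and 4.07 in the wild types, and Nox3, the oxidase needed for otoconia to form, at 6.45, 6.57 and 6.29 in the nulls and at 5.74, 6.13 and 6.15 in the wild types. The otoconia median was 0.07 without wild type 1 and 0.08 without null 2. Of 18 melanocyte genes 15 were higher (median 0.10), among them Dct, an enzyme of melanin synthesis, with 0.52 ± 0.17. The largest fall of the melanocyte list was -0.34 for Oca2, and 1 member was lower without overlap. Genes of vestibular ganglion neurons, which carry the signal to the brain, were higher in 22 of 28 (median 0.11, or 0.07 without null 3 and 0.03 without normalization and with array medians subtracted). No gene of these lists was called.

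Genes of cartilage were higher in 21 of 27 (median 0.15) and of osteoblasts and osteocytes in 16 of 21 (median 0.16), again with none called. The largest difference of the cartilage list was a fall, -0.81 for Matn1. Cytl1, a secreted protein of chondrocytes, was at 5.72, 5.61 and 5.78 in the nulls and at 4.96, 5.07 and 5.39 in the wild types (0.56 ± 0.16). Tnfrsf11b, the decoy receptor that restrains osteoclasts, was at 5.93, 5.98 and 5.98 in the nulls and at 5.52, 5.52 and 5.68 in the wild types (0.39 ± 0.11). Leaving out null 1 raised the cartilage median to 0.25, and leaving out null 2 lowered it to 0.09, or null 3 or wild type 3 to 0.08. For bone it was 0.24 when null 1 was left out, 0.27 when wild type 2 was and 0.07 when wild type 3 was.

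Chemokines and defence genes were higher in some arrays. Of 26 genes of the marrow niche and chemokines 19 were higher and 7 lower (median 0.17). At an unadjusted p under 0.05, 8 were higher, against 3.7% of all genes, and 0 lower, against 3.27%. Without overlap 8 were higher and 4 lower, against 8.75% and 7.75% of all genes. The largest fall was -0.37 for Il7. Cxcl10, which attracts T cells, was at 4.43, 3.39 and 3.9 in the nulls and at 3.04, 3.19 and 2.77 in the wild types (0.91 ± 0.27, adjusted p = 0.506, limma). Ccl3, which attracts monocytes, was at 4.92, 3.88 and 4.09 in the nulls and at 3.23, 3.74 and 3.60 in the wild types (0.77 ± 0.24). Reg3g, an antibacterial lectin of mucosal epithelium, was at 5.69, 3.61 and 5.03 in the nulls and at 2.78, 2.62 and 3.47 in the wild types (1.82 ± 0.45, adjusted p = 0.341). Null 1 was highest and null 2 lowest of the nulls for Cxcl10, Ccl3 and Reg3g, and their groups did not overlap. In the mucosal epithelium list 14 of 22 genes were higher (median 0.09, or 0.15 without normalization and with array medians subtracted). Its keratin Krt8 differed by 0.36 ± 0.14. Bpifb1, the largest fall of this list, was at 2.81, 2.61 and 2.78 in the nulls and at 3.07, 5.46 and 3.06 in the wild types (-1.13 ± 0.73).

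Markers of other tissues differed between the genotypes as well. The lists for choroid plexus and pituitary were chosen after the values were seen and are given as a description. Ttr, the transthyretin that choroid plexus secretes into the cerebrospinal fluid, was at 5.48, 6.47 and 5.05 in the nulls and at 8.20, 7.76 and 8.39 in the wild types, a difference of -2.45 ± 0.53 (adjusted p = 0.253, limma). Of 18 choroid plexus genes 14 were lower and 4 higher (median -0.38), 11 without overlap on the lower side, against 7.75% of all genes, and the mean of the list was 4.29, 4.33 and 4.28 in the nulls and 4.77, 4.64 and 4.88 in the wild types. The potassium channel subunit Kcne2 was at 3.45, 3.41 and 3.39 in the nulls and at 4.42, 4.11 and 4.52 in the wild types. At P90 the median of this list was 0.44, and 0 of 18 were lower in null.

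Hormone genes of the pituitary went the other way. Gh, growth hormone, was at 8.28, 8.22 and 5.73 in the nulls and at 5.93, 4.31 and 4.01 in the wild types. Null 3 lay below wild type 1, so the groups overlapped. Pomc, the precursor of corticotropin, was at 4.30, 6.45 and 4.23 in the nulls and at 3.60, 3.49 and 3.29 in the wild types. Of 15 pituitary genes 14 were higher and 1 lower (median 0.42). The mean of the list was 4.63, 5.08 and 4.04 in the nulls and 4.00, 3.68 and 3.70 in the wild types. The median was 0.26 without null 2. Genes of cerebellar and central neurons had mean levels of 6.31 to 6.39 in the nulls and 6.10 to 6.39 in the wild types (15 of 19 higher, median 0.05), a median that was -0.04 without wild type 2 and without normalization and -0.03 with array medians subtracted, and 0.12 without null 2, 0.11 without wild type 3 and 0.10 without wild type 1. The arrays thus held RNA of neural, pituitary, blood-forming and muscle cells beside that of the inner ear, and the part of these in the differences above was not tested.

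Fat and myelin genes were lower for some members. Ucp1, the uncoupling protein of brown fat, was at 2.96, 2.99 and 3.18 in the nulls and at 5.48, 4.02 and 4.49 in the wild types (-1.62 ± 0.85, adjusted p = 0.775, limma), and Cidec, a lipid droplet protein, at 3.34, 3.03 and 3.31 in the nulls and at 4.34, 3.86 and 4.04 in the wild types (-0.85 ± 0.32). The groups did not overlap for either gene, and 21 of 23 adipocyte genes were lower (median -0.22). Of 23 myelin and glia genes 11 were higher and 12 lower (median -0.01, and -0.06 to 0.05 under the alternatives). The largest rise of this list was 0.45 for Egr2 and the largest fall -0.45 for Mog. Without overlap 2 members were higher and 4 lower, against 8.75% and 7.75% of all genes. The myelin enzyme Cnp was at 6.95, 6.91 and 7.03 in the nulls and at 7.30, 7.16 and 7.30 in the wild types (-0.29 ± 0.08), and the myelin basic protein Mbp differed by -0.21 ± 0.07, neither with overlap. Genes of oxidative phosphorylation were lower in 43 of 56 by small amounts (median -0.04), and the median was 0.00155 without null 1 and -0.13 both without normalization and with array medians subtracted.

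**Figure D4:**
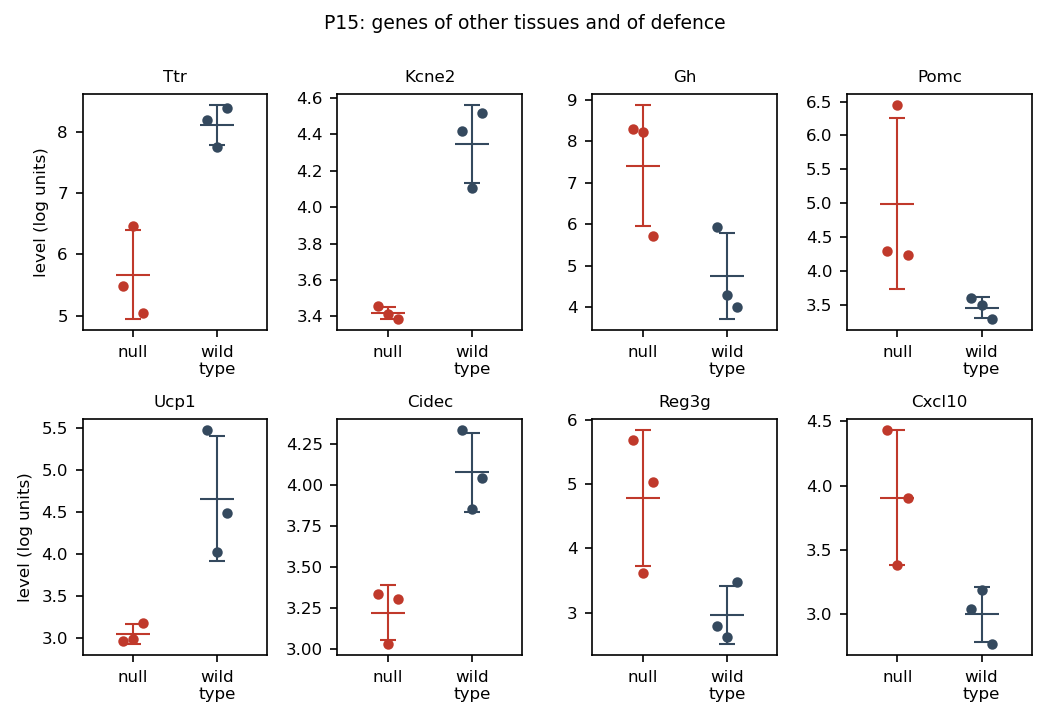
Level (log units) in each P15 array of 2 choroid plexus genes, 2 pituitary hormone genes, 2 fat genes and 2 defence genes, with null at the left and wild type at the right. Points are arrays in replicate order and bars the mean and SD (n = 3 each), with a scale for each panel. Ttr, Kcne2, Ucp1 and Cidec are lower in every null array, Pomc, Reg3g and Cxcl10 higher in every null array, and Gh overlaps. None of these genes was called.

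The sex markers of the P90 groups followed genotype. Xist was at 7.91, 7.43 and 7.42 in the P90 nulls and at 3.33, 2.87 and 1.86 in the P90 wild types, and the Y-linked mean was 2.00, 5.45 and 5.49 in the P90 nulls and 6.12, 6.12 and 6.32 in the P90 wild types. Genotype and sex signal therefore cannot be told apart in any P90 difference given here. At E18.5 Xist was at 7.31 to 8.01 in the nulls and 7.43 to 7.87 in the wild types.

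Set against the other ages, the P15 difference was opposite to that of E18.5 for muscle. The difference of the 2 genotype differences passed in 29 genes, of which 3 were more positive at P15 (0.015% of genes) and 26 more negative (0.13%), while 8.51% of genes had an unadjusted p under 0.05. Muscle genes were among the 26. Actn3 was higher in null by 1.03 ± 0.17 at E18.5 (adjusted p = 0.0426, limma) and differed by -0.85 ± 0.17 at P15, a contrast of -1.88 ± 0.25 (adjusted p = 0.00789). The contrast was -1.47 ± 0.19 for Mylpf, -1.53 ± 0.22 for Tnnc2 and -2.04 ± 0.30 for Ampd1, with adjusted p of 0.00789, 0.0154 and 0.0175. Of the fast sarcomere list 1 of 17 genes was lower in null at E18.5 (median 0.59), 17 at P15 (median -0.48) and 16 at P90 (median -0.21). The genes with a more positive difference at P15 were Pde1c, the sphingomyelin synthase Sgms2 and the dim gene Erich6b. The 29 became 48 without null 1, 14 without null 2, 6 without null 3, 4 without wild type 1, 20 without wild type 2 and 8 without wild type 3. None passed without normalization between arrays, where the median of this contrast over all genes was 0.14, against 0.03 as reported.

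Against P90, 3 genes passed, 1700006A11Rik as more positive at P15 (0.00502%) and 2 as more negative (0.01%), with 6.43% of genes at an unadjusted p under 0.05. None passed with a sex score as covariate or with array medians subtracted. The 2 genes more negative at P15 were Mmp12, a macrophage elastase, and Clec4n, a lectin receptor of myeloid cells. Mmp12 was at 4.24, 3.75 and 3.60 in the P15 nulls and at 4.11, 3.30 and 3.82 in the P15 wild types, and differed by 0.12 ± 0.19 at P15 against a rise of 2.25 ± 0.19 at P90 (contrast -2.13 ± 0.27, adjusted p = 0.0168, limma). Clec4n differed by 0.18 ± 0.15 at P15 against a rise of 1.58 ± 0.15 at P90 (contrast -1.40 ± 0.21, adjusted p = 0.0416). The count was 0 without null 3, 1 without null 1, wild type 1 or wild type 2, 2 without null 2 and 3 without wild type 3.

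The P15 and P90 differences, which share no arrays, pointed the same way for many genes at an unadjusted p under 0.05. Of the 737 genes higher at P15, 144 were also higher at P90, 19.5% of the P15 genes and 10.7% of the P90 genes, against 6.74% of all genes that were higher at P90. Of the 652 lower at P15, 142 were lower at P90, 21.8% and 16.3%, against 4.36%. With E18.5 the share of the higher genes in the same direction was 5.29%, against 6.49% of all genes, and of the lower genes 14.7% were in the opposite direction at E18.5, against 6.49%. Erythroid membrane genes had a median of 0.04 at E18.5 and -0.54 at P90, beside -0.54 at P15, and mature B cell genes one of -0.05 at E18.5 and -0.35 at P90. Mitosis genes had one of -0.06 at E18.5 and -0.37 at P90. Spib fell by 0.92 at P90 (adjusted p = 0.00337, limma), Cd79b by 0.93 (0.00338) and Cenpn by 0.49 (0.0366), while at P15 their differences of -0.64, -0.44 and -0.41 did not pass. These P90 values carry the difference in sex markers given above.

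**Figure D5:**
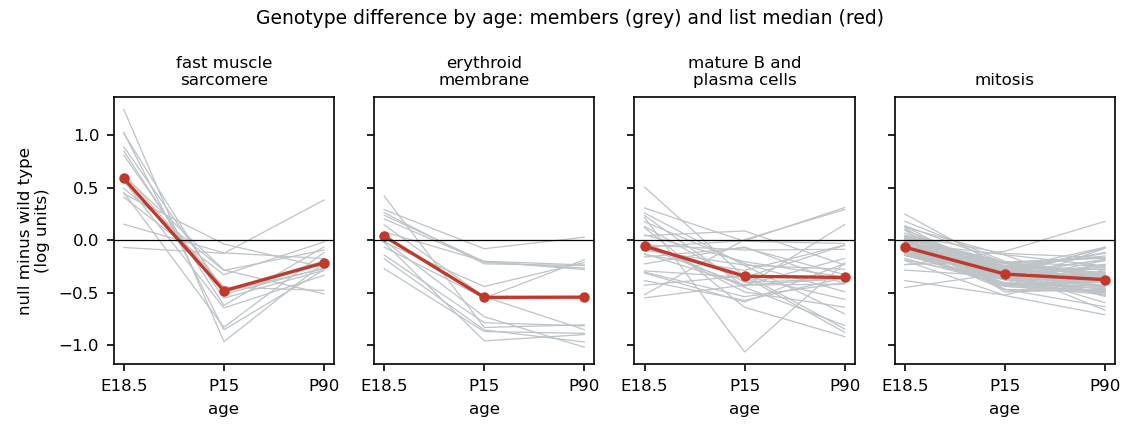
Null minus wild type (log units) at E18.5, P15 and P90 for the members of 4 gene lists (grey lines) and their median (red). Each age has 3 arrays per genotype and shares none with another age. Fast sarcomere genes lie above 0 at E18.5 and below at P15 and P90, while erythroid membrane, B cell and mitosis genes are near 0 at E18.5 and below 0 at P15 and P90.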

How the data were processed

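Vestibular organ RNA of 18 mouse samples was measured on Affymetrix Mouse Gene 1.1 ST arrays from 100 ng of total RNA, per the labels' protocols. The deposited values, 1 per probe set for 28853 probe sets, are on a log scale taken here as natural log because the highest value, 10.03, is an intensity of 22700 in natural log and of 1050 in log2. For base, background correction and summarization, the sources used here give nothing. The plan had assumed normalized values, but array medians ran from 3.88 to 4.82, so arrays were quantile normalized, which makes each difference relative to the other genes. The number of arrays limits the precision.

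Genes were named through the platform annotation, updated with RefSeq (GRCm38.p6) gene identifiers for 21698 probe sets. Of the probe sets, 21789 had 1 symbol, 1621 several or none, and 5443 were not listed. The probe set with the highest mean stood for its gene, which gave 19938 genes, with no intensity filter. In R 4.3.3, limma 3.58.1 (lmFit, then eBayes) fitted a mean per group with 12 residual degrees of freedom and a prior of 2.98, and p-values were adjusted by Benjamini and Hochberg's method. Contrasts were the P15 genotype difference and its differences from those of E18.5 and P90, and the fit was tested on simulated data. The main fit used no pairing by replicate number. Deviations of same-numbered P15 arrays from their group means correlated at 0.07, 0.24 and 0.00453, and those of different numbers at -0.252 to 0.192. These few values cannot decide whether same-numbered arrays shared a batch.

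There were 53 gene lists with 1163 measured genes. The members and lists were chosen with earlier results of these data known. Named genes were Igf1 and the IGF lists, called genes, the 15 smallest p per direction without overlap, the 10 largest differences per direction among those at an unadjusted p under 0.01 without overlap, the 6 smallest p and the extremes of each list, the 10 smallest p of each age contrast, the Pde1 and Trim30 families and sex-linked genes. Slc4a1, Mir451a, Gh, Gata1 and Sgms2 were named after their values were seen. Alternatives covered scaling, dim genes, probe sets, the variance prior, array weights, a sex score, a replicate block, fits to the arrays compared and leaving out each P15 array.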

Additional observations from a re-analysis of the deposited data

Results flagged for a closer look

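Groups of 3 arrays were too small to look for outlying arrays. Of 125 genes followed by name under the alternatives, 18 had a P15 genotype difference that differed from that of another age. The test was of the difference itself (limma, adjusted over all genes). Against E18.5, the genes that follow were more negative at P15. The differences of differences were -1.88 for Actn3, -1.47 for Mylpf, -1.53 for Tnnc2, -1.26 for the actin Acta1, -1.22 for the thin filament protein Lmod3, -1.73 for the slow myosin light chain Myl2 and -0.955 for the embryonic light chain Myl4. They were -2.04 for Ampd1, -1.71 for Casq1, -1.6 for Ckm, -1.41 for Atp2a1, -1.33 for the muscle glycogen phosphorylase Pygm and -1.46 for Yipf7. Pde1c, by 0.861, and the dim gene Erich6b, by 1.32, were more positive at P15 than at E18.5. Against P90, 1700006A11Rik was more positive by 1.11, and Mmp12 and Clec4n were more negative, by -2.13 and -1.4.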

How the results depend on the processing

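Precision was limited by 3 arrays per group, by signals of Trim30d and 1700006A11Rik below 3.39, the looser guide to dim signal, and by a deposited scale of unstated base. The 3 called genes became 1 without normalization between arrays or with the dimmest genes left out, 170 with array weights, and 0 with only the arrays compared. Leaving out 1 P15 array gave 0 to 2. The named genes that passed numbered 1, 1, 48 and 0 under those 4 settings and 0 to 2 without 1 array. The 29 genes that differed from E18.5 became 0 without normalization, 63 with a trended and robust prior, 154 with array weights, 5 with only the arrays compared, and 4 to 48 without 1 array. The 3 that differed from P90 became 1 without normalization, 0 with array medians subtracted, 14 with array weights, 0 with the sex score, 0 with only the arrays compared, and 0 to 3 without 1 array. With the replicate number as a block there were 0 genes at P15 and 0 named genes, 5 against E18.5 and 2 against P90. Whether same-numbered arrays shared a batch is not known. The cause of these shifts was not tested.

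The hair cell median was 0.165 without normalization and 0.168 with array medians subtracted, and 0.0849 to 0.119 without 1 array. The otic regulator median was 0.12 and 0.123 under those scalings, and 0.106 to 0.153 without 1 array. The MAPK feedback median was 0.108 to 0.197 without 1 array. Of 53 list medians 28 were below 0, and 23 to 31 were under the alternatives. The difference of Mmp12 at P15 was -0.0936 with array weights and -0.103 to 0.301 without 1 array. That of Gpnmb was -0.0194 with array weights and -0.136 to 0.2 without 1 array, and that of Trim30a was -0.2 to 0.0285 without 1 array.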
